A study of Cyprinus carpio with 9 samples.

Results

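Liver transcripts of adult common carp (Cyprinus carpio) fed duckweed were compared with those of carp fed earthworm and duckweed together at 1:1. Duckweed is a small floating water plant, so the comparison asks what differs when the animal share of the food is absent. The share of duckweed is larger at the same time, and the design cannot tell these changes apart. Genes were included when they reached 1 FPKM or more in at least 2 of the 6 libraries, which kept 22004 of the 42997 gene IDs. FPKM is a read count divided by the length of the gene model and by the total reads of the library. Each diet had 3 libraries, called mixed 1 to 3 and duckweed 1 to 3 here, out of 9 libraries in the series. The fish weighed 492.6 ± 30 g and were divided into groups of 90 with 3 repetitions each, and both diets shared a 24 h fast and MS-222 anaesthesia before the livers were frozen. The sources used here give no strain, sex, age in months or length of feeding, and whether each library came from 1 fish or from several is also not stated. The series' design text speaks of duplicates, while the labels hold 3 libraries per diet. The p-values below measure only how these libraries vary, and that variation may be technical.

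The carp is an omnivore without a stomach. Its liver takes up the products of digestion, stores glycogen and fat, and makes most plasma proteins, so a few transcripts for secreted proteins usually take a large share of liver messenger RNA. Carp liver also has exocrine pancreas tissue within it, and liver samples of this species can hold transcripts of digestive enzymes. The carp genome went through a duplication of its own, so many genes have a near-identical partner, and counts of such partners are uncertain. None of these roles could be given to a gene here: the files list IDs without names, and 0 of the 42997 IDs matched the RefSeq table of carp genes. Hepatocyte, pancreas and blood cell markers could not be looked up for the same reason, so the labelled tissue was not checked against markers.

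The libraries held between 10631569 and 11883466 reads. Mixed 3 stood apart from the other 5. Its correlation with them across the 22004 genes was between 0.45 and 0.521 on the log2 scale, whereas pairs among the other 5 lay between 0.85 and 0.932. Of 404 genes at 100 FPKM or more in each of the other 5 libraries, 44 were under 1 FPKM in mixed 3 and 149 were under 10. In the other direction, mixed 3 had 708 genes at 100 FPKM or more, of which 29 were under 1 FPKM in all of the other 5. Results are therefore given with all 6 libraries and with the 5 that leave mixed 3 out. Duckweed 2 and duckweed 3 also had transcripts in common. The 19 genes at 2 FPKM or more in duckweed 3, and at most 1/20 of that level in duckweed 1 and in mixed 1 and 2, were all present in duckweed 2, at 0.16 to 1.36 of the duckweed 3 level (median 0.296). By the same rule, 16 genes of duckweed 2 were at 0 to 5.76 of its level in duckweed 3 (median 0.378), so not all were shared. The 36 genes of duckweed 1 were at 0 to 1.8 of its level in duckweed 2 (median 0.0212). Over 276 genes at 10 FPKM or more in duckweed 1 or duckweed 3 and 8-fold or more apart between them, duckweed 2 lay between them in 92% and mixed 1 in 77.9%. Whether the 3 duckweed libraries are independent samples was not tested.

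The FPKM was spread over more genes on duckweed than in mixed 1 and 2. In mixed 1, the 20 most abundant genes held 50% of the library's FPKM sum, and in mixed 2 it took 25 genes. In duckweed 1, 2 and 3 it took 55, 42 and 56 genes. All 3 duckweed libraries lay above both of these mixed libraries. The mean was 51.0 ± 7.81 genes (SD, n = 3) on duckweed and 22.5 ± 3.54 (SD, n = 2) in mixed 1 and 2, a difference of 28.5 genes. An exact permutation of the diet labels (two-sided) returned p = 0.1, which is the lowest value possible with 3 against 2. Mixed 3 needed 532 genes, and with it the mixed mean was 192 ± 294 (SD, n = 3), above the duckweed mean, with exact permutation p = 1. The same held for 75% of the sum, which took 168 and 191 genes in mixed 1 and 2 against 325, 286 and 306 on duckweed.

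**Figure D1:**
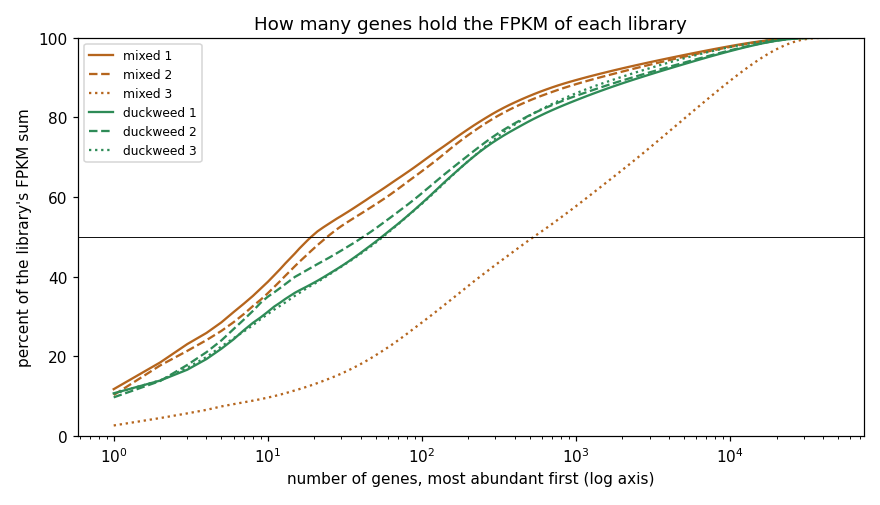
Share of each library's FPKM sum (vertical axis, percent) held by its most abundant genes (horizontal axis, number of genes, log axis), 1 line per library, with a horizontal line at 50%. The duckweed lines cross 50% at 42 to 56 genes, mixed 1 and 2 at 20 and 25, and mixed 3 at 532.

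The number of genes detected at 1 FPKM or more showed no such separation, while that at 10 FPKM or more did without mixed 3. At 1 FPKM or more there were 16802, 17679 and 26969 genes in mixed 1 to 3, and 20036, 19451 and 16692 on duckweed. The duckweed libraries lay on both sides of mixed 1 and 2. The duckweed mean of 18726 ± 1790 (SD, n = 3) differed by -1757 from the mixed mean of 20483 ± 5630 (SD, n = 3), with two-sided exact permutation p = 0.8, and lay 1486 above the mean of mixed 1 and 2, with exact permutation p = 0.4. At 10 FPKM or more there were 2986 and 3344 genes in mixed 1 and 2 and 3835, 3525 and 3607 on duckweed. All 3 duckweed libraries lay above both, by 491 on average (exact permutation p = 0.1, 5 libraries). Mixed 3 had 7934 such genes, and with it the difference was -1099. All these counts use FPKM as deposited, without scaling. A fixed threshold then also depends on how much of the sum the most abundant genes hold. The counts are thus not independent of the spread of FPKM described above.

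Among the most abundant genes, the direction of the large differences depended on mixed 3. Without it, 113 genes averaged 1000 FPKM or more. Of these, 17 (15%) lay 4-fold or more lower in the fit of 5 libraries with all 3 duckweed libraries below both mixed libraries, and 0 lay 4-fold or more higher, against 0.273% and 0.359% of all 22004 genes. With all 6 libraries, 119 genes averaged 1000 FPKM or more, of which 0 lay 4-fold or more lower without overlap and 10 (8.4%) higher, against 0.0773% and 0.686% of all genes. Counted without a minimum fold, 0 of the 119 had all duckweed libraries below all mixed libraries and 11 had them all above. The 113 genes held 10.7% of the FPKM sum in mixed 3, against 58.4% to 69.5% in the other 5 libraries. With mixed 3 so low, few of these genes could have had all duckweed libraries below it. The count of 0 lower was thus close to fixed in advance. A fold change here is a difference of log2(scaled FPKM + 1), where scaling evens out the bulk of genes between libraries. The added 1 makes 4-fold harder to reach at low levels, which lowers the shares over all genes. At 100 to 1000 FPKM, the lower and higher shares were 2.31% and 1.68% with 5 libraries. With 6 they were 0.794% and 8.33%. These 17 genes together held 24.9% and 21.7% of the FPKM sum in mixed 1 and 2. They held 4.79%, 8.84% and 6.38% in duckweed 1, 2 and 3, a mean of 6.67% ± 2.04 (SD, n = 3). In mixed 3 they held 0.0174%. The 17 were chosen by this same contrast, so their shares are a description and carry no test.

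The most abundant transcript of mixed 1 and 2 belonged to the 17. Gene CAFS_CommonC_G_068807 was at 96004 and 85565 FPKM in mixed 1 and 2, at 20599, 30267 and 23244 FPKM in duckweed 1 to 3, and at 41.7 FPKM in mixed 3. It held rank 1 in mixed 1 and 2, rank 3 in duckweed 1 and 3 and rank 2 in duckweed 2. Its log2 fold change was -2.14 (SE 0.28), with an adjusted p of 0.152 (limma, 5 libraries, Benjamini-Hochberg over 22004 genes). Rank 1 on duckweed was held by CAFS_CommonC_G_016105, at 80657, 71348 and 77789 FPKM, which held rank 2 in mixed 1 and 2 at 54895 and 61900 FPKM. After scaling, its log2 fold change was 0.14 (SE 0.22, adjusted p = 0.923, limma, 5 libraries). Gene CAFS_CommonC_G_000749 had the largest fold change of the 17. It was at 12472 and 13600 FPKM in mixed 1 and 2 and at 622, 3147 and 1719 FPKM in duckweed 1 to 3, a log2 fold change of -3.37 (SE 0.68, adjusted p = 0.342, limma). These 3 genes were chosen after their values were seen.

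Duckweed 1 was the lowest duckweed library in 14 of the 17 genes by FPKM as deposited, and duckweed 2 the highest in 14. The share of all genes with this order was not counted. The order therefore cannot be called particular to the 17. Over the 17 genes, mixed 1 and 2 were at most 1.77-fold apart (median 1.31-fold). The highest and lowest duckweed libraries were up to 5.64-fold apart (median 1.93-fold). A range over 3 libraries tends to be wider than one over 2, so these spreads cannot be compared directly. In deposited FPKM, the mean of mixed 1 and 2 was 2.74 to 7.13 times the duckweed mean. Their recovered gene models were 277 to 2358 bases long, with a median of 911, against a median of 986.5 for the other 96 genes of the class. All 17 had an unadjusted p under 0.05, but the adjusted p ranged from 0.12 to 0.673 (limma, 5 libraries). With mixed 3 in the fit, the log2 fold change of all 17 turned positive, between 0.49 and 2.06, since mixed 3 was at 0.56 to 41.7 FPKM. In these bulk samples, fewer cells of a type and less RNA per cell cannot be told apart.

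**Figure D2:**
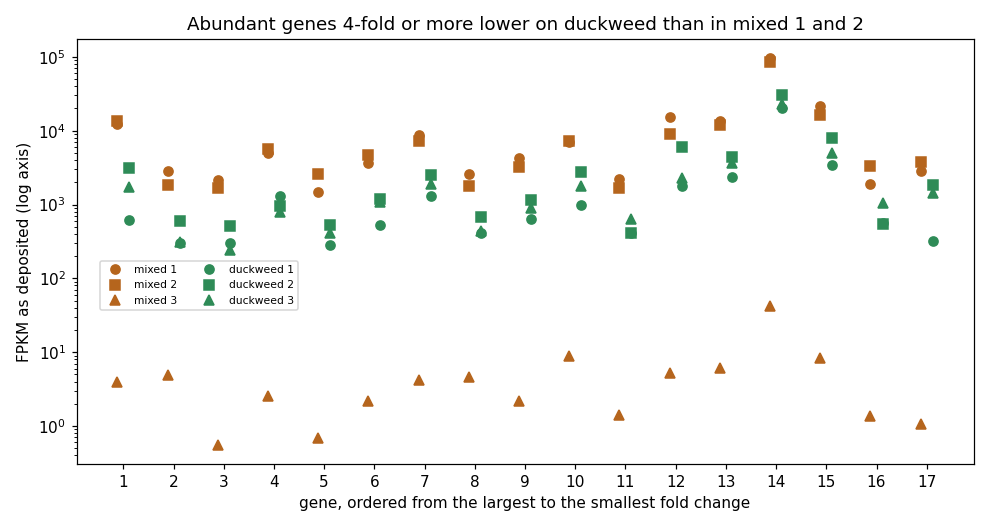
FPKM as deposited (vertical axis, log axis) of the 17 abundant genes that lay lower on duckweed (horizontal axis, ordered by fold change), 1 point per library. They averaged 1000 FPKM or more and were 4-fold or more lower in scaled values of the fit of 5 libraries. In the deposited values shown, the ratio of means was 2.74 to 7.13. In each gene the 3 duckweed points lie below mixed 1 and 2, and mixed 3 lies at 0.56 to 41.7 FPKM, below all others.

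Among the same 113 genes, those with no overlap in the other direction differed by less. In all, 32 lay lower in every duckweed library than in mixed 1 and 2 and 12 lay higher, against 12.3% and 11.8% of all 22004 genes. The 12 were 1.39 to 3.82 times as high on duckweed in deposited FPKM, and 4 of them over 2.9 times. The largest, CAFS_CommonC_G_058587, was at 351 and 713 FPKM in mixed 1 and 2 and at 1523, 2053 and 2516 FPKM on duckweed. It too was chosen after its values were seen, and it did not pass the test (adjusted p = 0.461, limma, 5 libraries). The 32 against 12 depended on the scaling. In FPKM as deposited, the median log2 fold change of all genes moved from -0.018 to 0.15. Of the 111 genes then at 1000 FPKM or more, 23 lay lower and 25 higher, against 1195 lower and 4301 higher of all 22004 genes. The balance of all genes moved as well, so the 23 and 25 cannot be read without it. The 4-fold count kept its direction, at 11 lower and 0 higher. The 12 became 22 without duckweed 1, 23 without duckweed 2 and 12 without duckweed 3, and the 32 became 46, 34 and 41. The class then held 111, 114 and 112 genes. Over all 22004 genes, the higher counts in the same order were 4013, 3371 and 4651, and the lower counts 4345, 3379 and 5256. With fewer libraries no overlap is easier to meet, so such counts tend to rise by construction. The 17 lay between 12 and 20 with 1 of the 5 libraries left out, where no more than 2 genes lay 4-fold or more higher.

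Genes 4-fold or more apart were found on both sides. Over all levels, 79 genes were 4-fold or more higher without overlap in the fit of 5 libraries (0.359% of 22004 genes) and 60 were 4-fold or more lower (0.273%). Of the 79, 71 averaged under 100 FPKM, against 32 of the 60. The higher genes made up 0.158% of all genes at 1 to 10 FPKM, 1.62% at 10 to 100 FPKM, 1.68% at 100 to 1000 FPKM and 0% above, and the lower genes 0.0724%, 0.723%, 2.31% and 15%. The pseudocount of 1 makes 4-fold harder to reach at low levels, so the low classes cannot be compared directly with the others. The median of the 79 was 38.7 FPKM on duckweed and 4.44 FPKM in mixed 1 and 2, and that of the 60 was 30.7 and 133 FPKM. The largest difference upward was in CAFS_CommonC_G_071176, at 10.7 and 9.65 FPKM in mixed 1 and 2 and at 683, 155 and 396 FPKM on duckweed (log2 fold change 4.73, SE 0.60). The largest downward was in CAFS_CommonC_G_063277, at 98.1 and 17.7 FPKM in mixed 1 and 2 and at 0.201, 0.398 and 0 FPKM on duckweed (log2 fold change -5.35, SE 0.68). Both had an adjusted p of 0.152 (limma, 5 libraries) and were chosen after their values were seen. The adjusted p of the 79 and the 60 was never below 0.12. The 79 became 142, 94 and 93 without duckweed 1, 2 and 3 in turn, and the 60 became 55, 71 and 105. No overlap is easier to meet with fewer libraries, so a rise in these counts is no sign of a stronger difference. In FPKM as deposited, 109 were higher and 37 lower. With all 6 libraries, 151 genes were 4-fold or more higher without overlap (0.686%) and 17 lower (0.0773%), and 58 of the 79 and 5 of the 60 were among them. Of the 151, 42 averaged 100 to 1000 FPKM and 10 averaged 1000 FPKM or more.

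Counted without a minimum fold, higher and lower genes were about equal in number in the scaled fit of 5 libraries and not in that of 6. In the fit of 5 libraries, 2607 genes were higher in every duckweed library than in mixed 1 and 2 (11.8% of genes tested) and 2708 were lower (12.3%). In FPKM as deposited the numbers were 4301 and 1195, so in these 5 libraries the near equality depended on the scaling. For a gene without ties, 1 of the 10 ways to assign 3 of 5 libraries to duckweed puts them all above, and 1 all below. With 6 libraries it is 1 of 20 ways for each direction. Shares near these rates cannot be read as diet differences. By mean level in the 5 libraries, the higher and lower shares were 11% and 13.2% of the 15186 genes at 1 to 10 FPKM, 11.3% and 12.4% of the 2904 genes at 10 to 100 FPKM, and 12% and 13.4% of the 476 genes at 100 to 1000 FPKM. At 1000 FPKM or more they were 10.6% and 28.3% of 113 genes. Under 1 FPKM they were 16.5% and 7.52% of 3325 genes. Genes in this class could pass the filter through mixed 3 and 1 of the other 5 libraries, of which 3 are duckweed. The filter can thus favour higher genes there, and these 2 shares cannot be read against the rate of 1 in 10. With all 6 libraries the higher and lower shares were 4.72% and 3.14% under 1 FPKM, 5.21% and 4.03% at 1 to 10 FPKM, 7.81% and 2.2% at 10 to 100 FPKM, 10.7% and 1.19% at 100 to 1000 FPKM, and 9.24% and 0% at 1000 FPKM or more.

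**Figure D3:**
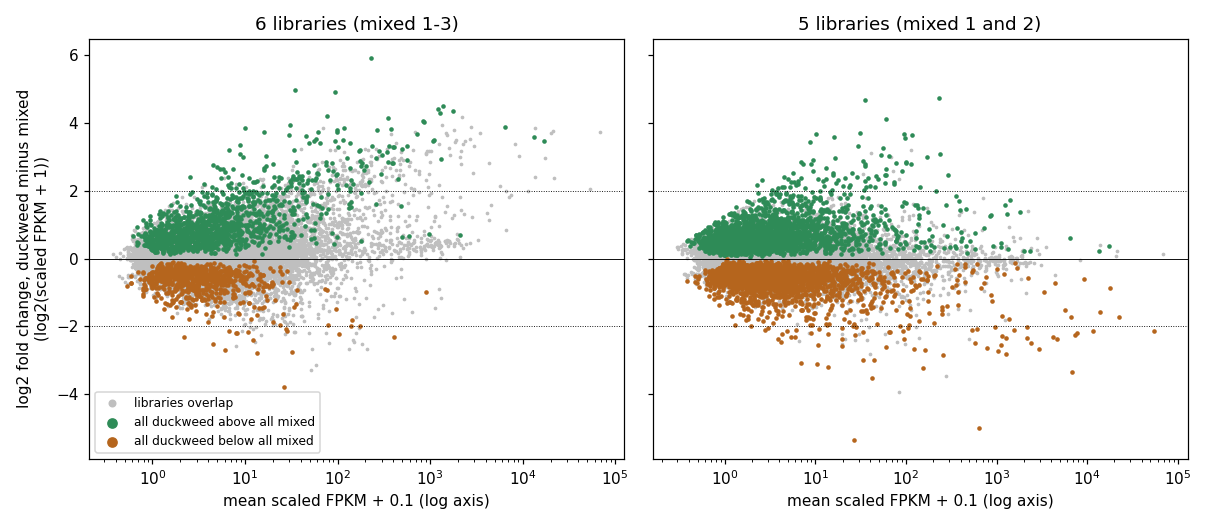
Log2 fold change (vertical axis, duckweed minus mixed, on the scale of log2(scaled FPKM + 1)) against mean scaled FPKM (horizontal axis, log axis) for 22004 genes, with all 6 libraries on the left and without mixed 3 on the right. Green and brown points are genes whose duckweed libraries all lie above or all below the mixed libraries, grey points overlap, and dotted lines mark 4-fold. On the right, 17 brown points at 1000 FPKM or more lie below the lower dotted line and 0 green points above the upper one, while on the left the abundant genes lie mostly above 0.

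Few genes were present on one diet and nearly absent on the other. Of 15027 genes at 1 FPKM or more in all 3 duckweed libraries, 61 were at 0.5 FPKM or less in mixed 1 and 2. Mixed 3 was at 1 FPKM or more in 49 of these 61 and at 0.5 FPKM or less in 9. Conversely, of 15289 genes at 1 FPKM or more in mixed 1 and 2, 11 were at 0.5 FPKM or less in all 3 duckweed libraries, and mixed 3 was at 1 FPKM or more in 7 of them. Both counts use FPKM as deposited, and near absence was required in 2 mixed libraries but in 3 duckweed libraries. The 61 and the 11 therefore cannot be compared directly. Mixed 3 had 26969 genes at 1 FPKM or more, against 16692 to 20036 in the other libraries. How many of the 15027 and the 15289 reached 1 FPKM in mixed 3 was not counted. The 49 and the 7 thus cannot be called particular to these genes. With 0.1 FPKM as the limit, 2 genes were left on the duckweed side and 1 on the mixed side. The 2 were CAFS_CommonC_G_077867, at 4.18, 3.08 and 4.20 FPKM on duckweed and 22.9 FPKM in mixed 3, and CAFS_CommonC_G_000637, at 4.65, 6.44 and 2.45 FPKM on duckweed and 0.514 FPKM in mixed 3. Both had 0 reads in mixed 1 and 2, which allows up to 3 reads in each (0.264 and 0.274 CPM, reads scaled to a common library total). CAFS_CommonC_G_000637 rested on 10, 14 and 5 reads on duckweed. The gene on the mixed side was CAFS_CommonC_G_035454, described next.

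With all 6 libraries, 4 genes were taken by rule as the smallest p on each side without overlap. Gene CAFS_CommonC_G_076935 was at 12.6, 19.1 and 13.5 FPKM in duckweed 1 to 3 and at 0.45, 0.233 and 3.12 FPKM in mixed 1 to 3. Each duckweed library was above each mixed library, and the means were 15.1 ± 3.53 (SD, n = 3) and 1.27 ± 1.61 FPKM (SD, n = 3). It rested on 2, 1 and 13 reads in mixed 1 to 3, against 58, 89 and 59 on duckweed. Its log2 fold change was 3.35 (SE 0.36, adjusted p = 0.339, limma, 6 libraries). This value depends on the pseudocount: with 0.1 it was 4.47 with 6 libraries and 4.91 with 5. Gene CAFS_CommonC_G_029105 was at 19.3, 9.02 and 22.9 FPKM on duckweed and at 0.484, 0 and 0.646 FPKM on the mixed diet. All 3 mixed libraries were under 1 FPKM, with 4, 0 and 5 reads, against 165, 78 and 186 reads on duckweed. The fit gave a log2 fold change of 3.85 (SE 0.45, adjusted p = 0.339, limma), and 3.67 (SE 0.48) without mixed 3. With a pseudocount of 0.1 and 6 libraries it was 5.84.

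On the lower side, CAFS_CommonC_G_035454 was at 1.98, 3.44 and 12.9 FPKM in mixed 1 to 3 and at 0.0434, 0 and 0 FPKM in duckweed 1 to 3. It had 387 reads in the mixed libraries, 269 of them in mixed 3, and 1 read on duckweed. The ratio per library total was 409, with an exact 95% interval of 72.9 to 16200 that covers counting error only. Both rest largely on mixed 3. Its log2 fold change was -2.32 (SE 0.29, adjusted p = 0.339, limma), and -1.95 (SE 0.25) without mixed 3, values that depend on the pseudocount. Mixed 3 was the highest library, and all 3 mixed libraries were above all 3 duckweed libraries. Gene CAFS_CommonC_G_052689 was at 12.5, 3.60 and 27.3 FPKM in mixed 1 to 3 and at 0.619, 0.321 and 0.931 FPKM on duckweed. The mixed libraries spread widely among themselves, and all duckweed libraries were below 1 FPKM. The fitted log2 fold change was -2.69 (SE 0.48, adjusted p = 0.892, limma), and -2.45 (SE 0.5) without mixed 3. With a pseudocount of 0.1 and 6 libraries it was -3.73.

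The same rule without mixed 3 took CAFS_CommonC_G_076935 again, with a log2 fold change of 3.43 (SE 0.32, adjusted p = 0.12, limma, 5 libraries), and 3 others. Gene CAFS_CommonC_G_089847 was at 262, 148 and 106 FPKM in duckweed 1 to 3 and at 10.3 and 11.1 FPKM in mixed 1 and 2. Mixed 3, at 21.3 FPKM, was also below all duckweed libraries. The log2 fold change was 3.55 (SE 0.38, adjusted p = 0.152, limma), and 3.75 (SE 0.58) with mixed 3. Gene CAFS_CommonC_G_054592 was at 25.6 and 28.9 FPKM in mixed 1 and 2 and at 2.37, 3.52 and 1.96 FPKM on duckweed. Mixed 3 had 0 reads of it, so it lay on the far side of the duckweed libraries. Its log2 fold change was -3.20 (SE 0.30, adjusted p = 0.12, limma), and -1.52 (SE 1.32) with mixed 3. Gene CAFS_CommonC_G_010134, one of the 17 abundant genes, was at 5054 and 5603 FPKM in mixed 1 and 2 and at 1302, 942 and 797 FPKM on duckweed. In the 5 libraries the log2 fold change was -2.67 (SE 0.26, adjusted p = 0.12, limma). With mixed 3, at 2.51 FPKM, it turned to 1.24 (SE 3.02).

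**Figure D4:**
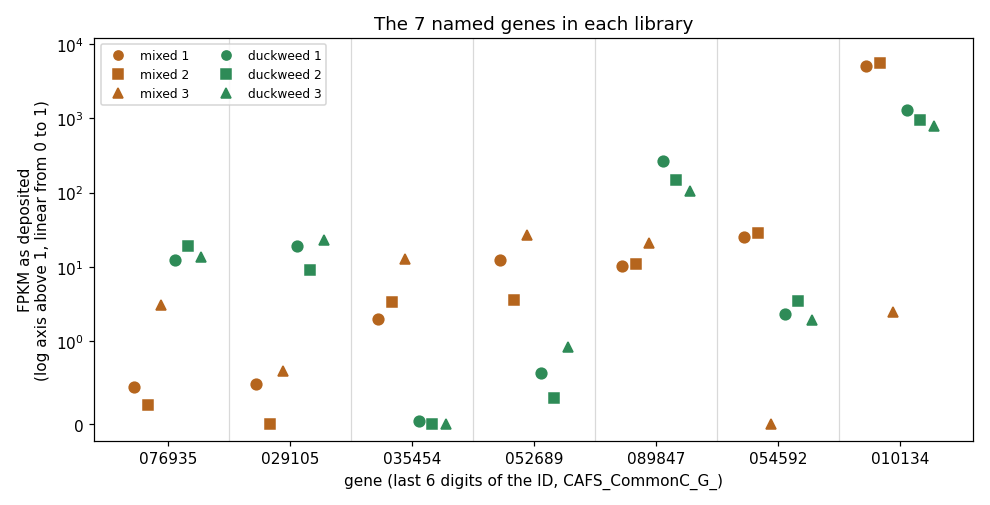
FPKM as deposited (vertical axis, log axis above 1 and linear from 0 to 1) of the 7 genes taken by rule (horizontal axis, last digits of the ID), 1 point per library. In the first 5 genes all 3 duckweed points lie on one side of all 3 mixed points, and in the last 2 the mixed 3 point, at 0 and 2.51 FPKM, lies below the duckweed points.

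By scaled FPKM, mixed 3 lay mostly on the side of mixed 1 and 2 among genes higher on duckweed, and rarely among lower ones. Of the 79 genes 4-fold or more higher on duckweed than in mixed 1 and 2, mixed 3 lay below all 3 duckweed libraries in 63 (79.7%) and above them in 6. Of the 60 genes 4-fold or more lower on duckweed, it also lay below all 3 duckweed libraries in 44 (73.3%), and above them, on the side of mixed 1 and 2, in 8 (13.3%). Over all 22004 genes it lay below them in 41.0% and above them in 28.2%. The duckweed values compared here with mixed 3 also chose both lists. Any further library thus tends to lie on the side of mixed 1 and 2. The shares over all genes are therefore no fair baseline, and the shares in the lists carry no test. Mixed 3 was thus low in both lists after scaling, which divided it by 2.27 and the other libraries by 0.738 to 1.03. Its position in FPKM as deposited was not counted. Of the 60, 43 averaged under 1000 FPKM, and in these mixed 3 lay below the duckweed libraries in 27.

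**Figure D5:**
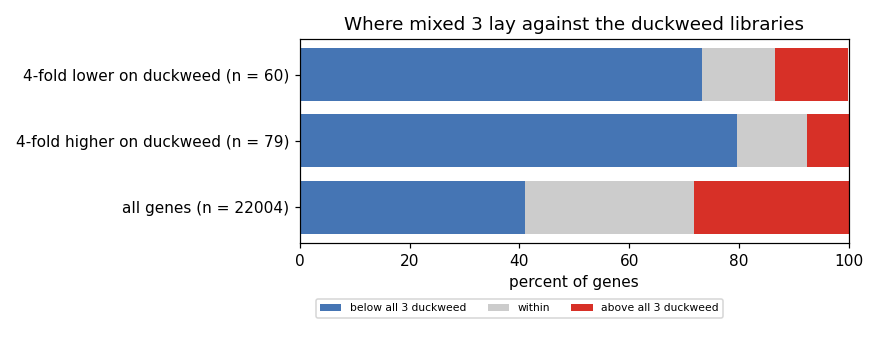
Share of genes (horizontal axis, percent) in which mixed 3 lay below, within or above the range of the 3 duckweed libraries, for all 22004 genes and for those 4-fold or more higher or lower on duckweed than in mixed 1 and 2. Mixed 3 lay below in 79.7% of the higher and 73.3% of the lower genes, against 41.0% of all. Positions are by scaled FPKM. The duckweed values also chose both lists, so the share of all genes is no fair baseline.

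Pairs of libraries from one diet did not all lie closer together than pairs from both diets. Without mixed 3, the median absolute log2 difference of a gene between 2 libraries of different diets was 0.346 to 0.441 over 6 pairs, and between 2 libraries of the same diet 0.294 to 0.522 over 4 pairs. The number of genes 4-fold or more apart was 317 to 598 between diets, with correlations of 0.889 to 0.918. Within a diet, 3 of the 4 pairs had fewer such genes than every pair from different diets. Duckweed 1 and 2 had 231, duckweed 2 and 3 had 236 and mixed 1 and 2 had 283, with correlations of 0.932, 0.923 and 0.927. By the median difference, these 3 pairs were at 0.294, 0.416 and 0.343. Duckweed 2 and 3 thus lay within the range of pairs from different diets, and mixed 1 and 2 only just below it. The other pair, duckweed 1 and duckweed 3, had 958 such genes and a correlation of 0.85, farther apart than any pair from different diets among the 5 libraries. Pairs with mixed 3 had 2749 to 3114 such genes, whichever diet the other library came from.

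No gene passed an adjusted p of 0.05 in the fit of 6 libraries or of 5 (limma, Benjamini-Hochberg over 22004 genes, 0% called in either direction). The smallest adjusted p was 0.339 with 6 libraries and 0.12 with 5. At an unadjusted p under 0.05 there were 817 genes with 6 libraries (3.71%), 593 higher (2.69%) and 224 lower (1.02%) on duckweed. With 5 libraries there were 1546 (7.03%), 832 higher (3.78%) and 714 lower (3.24%). By limma-voom, run on reads recovered from the FPKM, 0 genes were called in either fit, and 849 and 1393 had an unadjusted p under 0.05. From the estimate to either bound, the 95% interval of a log2 fold change spanned a median of 0.93 with 6 libraries and 0.754 with 5, or 1.91-fold and 1.69-fold. All libraries lay without overlap in 2051 genes with 6 libraries (9.32%), 1261 higher (5.73%) and 790 lower (3.59%). Without overlap against mixed 1 to 3, a gene has none against mixed 1 and 2 unless the new scaling moves it. That 1223 and 781 also did so without mixed 3 thus carries no test. For each direction, 1 of the 20 ways to assign 6 libraries gives no overlap, so these shares are not evidence of a diet difference.

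Leaving out duckweed 1 gave the only calls over the libraries left out in turn. With 6 libraries, CAFS_CommonC_G_030002 was then called higher (adjusted p = 0.0391, limma). Without mixed 3, CAFS_CommonC_G_030002 (adjusted p = 0.00379) and CAFS_CommonC_G_076935 (adjusted p = 0.0273) were called higher and CAFS_CommonC_G_025752 lower (adjusted p = 0.00379, limma). Gene CAFS_CommonC_G_030002 was at 4.74, 101 and 73.1 FPKM in duckweed 1 to 3 and at 0.18, 0.372 and 0.0639 FPKM in mixed 1 to 3. Gene CAFS_CommonC_G_025752 was at 158, 0.121 and 0 FPKM in duckweed 1 to 3 and at 28.7, 36.8 and 0 FPKM in mixed 1 to 3, so duckweed 1 alone exceeded the mixed libraries. CAFS_CommonC_G_030002 and CAFS_CommonC_G_025752 both set duckweed 1 apart from duckweed 2 and 3. That pair had transcripts in common, though some were also shared by other pairs.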

How the data were processed

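Per the file headers, the authors' deposited files give 1 FPKM value per gene ID. The submitters' processing notes list HTSeq 0.6.0. No aligner, genome build, annotation or strand setting is given in the sources used here, so overlapping, antisense and near-identical genes cannot be told apart. Diet and replicate number come from the titles.

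Library totals and gene lengths were recovered from the steps of low FPKM values (lengths of 60 to 60000 bases, whole reads within 0.002 reads). The recovered reads summed to 99.39% or more of each total. FPKM was divided by trimmed-mean-of-M-values factors computed on these reads (30% of ratios and 5% of levels trimmed), from 0.738 to 1.03 in 5 libraries and 2.27 in mixed 3, and analysed as log2(scaled FPKM + 1). limma 3.58.1 in R 4.3.3 fitted the 2 diets (trend and robust options, two-sided, Benjamini-Hochberg, threshold 0.05) with 6 libraries and again, with new factors (0.855 to 1.22), without mixed 3. The earthworm libraries were not used. Genes that pass the filter only through mixed 3 and 1 other library stayed in the fit of 5, where 20191 of the 22004 reached 1 FPKM in 2 libraries. Single values per library were compared by exact permutation. Within a diet, counts of any pair of libraries differed beyond sampling noise (chi-square divided by its degrees of freedom, 36.3 or more). None was therefore treated as a copy of another. Whether any libraries came from the same fish cannot be told from this measure. Counts of abundant and 4-fold genes were recomputed under other scalings and with libraries left out, alternatives chosen after seeing the data. Scripts were tested on simulated data.

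Genes named by rule were, in each fit, the 2 higher and 2 lower with the smallest p among those without overlap and with a mean of 1 FPKM or more. Cell type markers could not be matched to the IDs. Members, classes and rules were chosen with earlier results of these data known. Intervals and floors cover counting error only.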

Additional observations from a re-analysis of the deposited data

How the results depend on the processing

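Adjusted calls stayed at 0 in both fits with FPKM as deposited, median-ratio factors, a pseudocount of 0.1, no filter, limma-voom, a filter of 1 FPKM in 3 libraries, no robust option and the replicate number as a block. With 1 library left out they ranged from 0 to 1 with 6 libraries and from 0 to 3 with 5. The replicate block gave 951 genes at an unadjusted p under 0.05 with 6 libraries and 2419 with 5, against 817 and 1546. Same-numbered libraries deviated together at correlations of -0.002, 0.02 and 0.02, so the numbers were not taken as pairs, and not every library correlated best with its own number. The 817 became 507 in FPKM as deposited, 1546 without mixed 3 and 413 without duckweed 2. The 1546 became 2338 without a filter (40013 genes tested), 915 without duckweed 2 and 2566 without duckweed 3. The difference in genes at 1 FPKM or more turned from -1757 to 1486 without mixed 3, and lay between -3598 and 1486 over the libraries left out. The difference in genes holding 50% of the FPKM sum turned from -141.3 to 28.5 without mixed 3, and lay between -227.5 and 28.5. With 6 libraries, thresholds of 0.1 and 10 FPKM kept the direction of the first, and shares of 25% and 75% and reads in place of FPKM kept that of the second. The log2 fold changes of the genes named by rule kept their direction in the alternatives run within the fit that named them, but CAFS_CommonC_G_010134, named without mixed 3 at -2.67, was at 1.24 with it. With 6 libraries the 4-fold counts of 151 higher and 17 lower became 79 and 60 without mixed 3. The cause of these changes was not tested. A count of 0 allows 3 reads, or 0.252 to 0.282 CPM, so genes near that level cannot be called absent.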

Other observations

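Fold changes differed little between short and long gene models. With mixed 3 left out, the median log2 fold change (duckweed minus mixed) was -0.049 in 4011 genes of up to 1000 bases, -0.038 in 6754 genes of 1000 to 2000 bases, -0.014 in 7797 genes of 2000 to 4000 bases and 0.024 in 3442 longer genes. With all 6 libraries the medians in the same order were 0.063, 0.013, -0.006 and 0.032.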
